A study of Homo sapiens with 7 samples.

Results

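The CDK inhibitors and the CDKN2A locus were followed through the peak lists of PIXUL-ChIP-seq in HCT116 cells, a line grown from a human colorectal carcinoma. The members are 6 named genes out of 64439 in the GENCODE annotation of hg19: CDKN2A, CDKN2B, CDKN2B-AS1, CDKN2C, CDKN2D and CDKN1B. Every deposited peak over a gene body or within 10 kb of it was taken. This gave 66 of the 240889 peaks in the 6 lists, of which 38 passed the limits that the study set for its peaks and 28 did not.

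In the study, 7 libraries were made from HCT116 cells, all grown alike and each from 1 culture well of 200000 cells that were crosslinked and sheared in the plate for 6 min in 100 µl. There was 1 library for each antibody, and peak lists of H3K4me3, H3K9Ac, H3K4me1, H3K36me3, H3K27me3 and CTCF were used. H3K27Ac was not analysed here. With 1 library for each mark there is no replicate error, so no difference below was tested, and values are given as a description beside the same measure over all 20162 protein-coding genes.

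The INK4 proteins p16INK4a (from CDKN2A), p15INK4b (CDKN2B), p18INK4c (CDKN2C) and p19INK4d (CDKN2D) bind CDK4 and CDK6 and block their pairing with D-type cyclins. CDKN1B encodes p27KIP1, which binds cyclin E-CDK2 and other cyclin-CDK complexes. CDKN2A also encodes p14ARF, read from another first exon and in another frame, which binds MDM2 and thereby stabilizes p53. CDKN2B-AS1, also called ANRIL, is a long non-coding RNA transcribed from the opposite strand across CDKN2B. In many normal cells the INK4 locus is held silent by polycomb complexes, which deposit H3K27me3. H3K4me3 and H3K9Ac mark active promoters, H3K4me1 marks enhancers and promoter flanks, H3K36me3 marks the bodies of transcribed genes, and CTCF binds DNA through its zinc fingers at insulators and loop anchors.

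All 6 members had H3K4me3 and H3K9Ac peaks past the limits at the start of transcription, beside 59.1% and 58.5% of all protein-coding genes. No H3K27me3 peak was listed at these starts, beside 9.6% of all protein-coding genes with a listed one. The heights differed along the family. On a linear scale of fold enrichment over the local background, H3K4me3 was 25.5 at CDKN1B, 24.5 at CDKN2C and 21.6 at CDKN2D, against 16.8 at the promoter that p14ARF shares with CDKN2B-AS1, 14.5 at CDKN2B and 13.2 at the p16INK4a start. The 3 start regions of the chromosome 9 locus were thus below the canonical starts of the other 3 genes in this library. CDKN2B was the only member with a CTCF peak past the limits at its start, beside 13.6% of all protein-coding genes.

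Sequences of 4 promoters are shown first, since they carry these peaks and differ in their content of CpG dinucleotides, which are in capitals. Each is the 250 bases before the annotated start in hg19, read from the reference genome 5′ to 3′ on the strand of the gene. The p16INK4a promoter is chr9:21974857-21975106, minus strand. The p14ARF promoter is chr9:21995301-21995550, minus strand, before the outermost annotated start of that transcript group (chr9:21995300). This window lies upstream of the p14ARF start used for the peaks (chr9:21994391) and past the CDKN2B-AS1 start, within the H3K4me3 peak that covers both. The CDKN2B promoter is chr9:22009305-22009554, minus strand, and the CDKN1B promoter is chr12:12870052-12870301, plus strand.
p16INK4a: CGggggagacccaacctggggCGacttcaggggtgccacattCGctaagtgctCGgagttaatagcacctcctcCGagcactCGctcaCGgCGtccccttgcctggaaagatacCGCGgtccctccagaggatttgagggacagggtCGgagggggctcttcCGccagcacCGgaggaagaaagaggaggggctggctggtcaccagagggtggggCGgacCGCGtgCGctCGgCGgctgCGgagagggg
p14ARF, outermost start: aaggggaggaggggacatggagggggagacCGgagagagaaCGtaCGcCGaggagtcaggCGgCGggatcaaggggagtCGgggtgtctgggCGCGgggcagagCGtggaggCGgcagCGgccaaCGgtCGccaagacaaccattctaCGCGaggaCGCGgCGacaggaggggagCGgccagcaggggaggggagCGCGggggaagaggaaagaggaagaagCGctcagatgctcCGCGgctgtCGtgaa
CDKN2B: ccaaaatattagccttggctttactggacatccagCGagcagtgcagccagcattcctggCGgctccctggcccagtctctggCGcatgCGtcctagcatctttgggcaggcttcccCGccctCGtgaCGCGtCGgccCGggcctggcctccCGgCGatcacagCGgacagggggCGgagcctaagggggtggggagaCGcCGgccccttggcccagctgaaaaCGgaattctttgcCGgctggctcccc
CDKN1B: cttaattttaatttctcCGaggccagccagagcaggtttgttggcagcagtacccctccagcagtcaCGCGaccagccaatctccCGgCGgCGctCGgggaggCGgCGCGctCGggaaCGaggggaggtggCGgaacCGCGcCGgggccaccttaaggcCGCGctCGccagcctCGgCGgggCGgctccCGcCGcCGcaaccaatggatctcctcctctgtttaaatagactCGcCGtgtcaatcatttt

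The p16INK4a promoter held 20 CpG and the CDKN2B promoter 18, the latter equal to the median of 18 over all protein-coding promoters. The window before the outermost p14ARF start held 26, the CDKN1B promoter 27 and the CDKN2B-AS1 promoter, not printed here, 17. Genes with an H3K4me3 peak at the start had a median of 23, and genes without one a median of 5. Relative to base composition, the observed to expected ratio of CpG was 0.736 at p16INK4a and 0.654 at CDKN2B, against 1.06 at the outermost p14ARF start, 1.04 at CDKN1B, 1.23 at CDKN2B-AS1 and a median of 0.746 over all promoters. CDKN2D, not printed here, held 33 CpG at a ratio of 1.16. The middle start of CDKN2C held 35 at a ratio of 0.989, whereas the canonical start of CDKN2C, which lies 1539 bp further downstream, held 10 at a ratio of 0.678. An upstream start of CDKN2C held 7 at a ratio of 0.633.

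Common promoter motifs were searched on both strands of these windows. The GC box GGGCGG was present in 58.6% of all promoters. It occurred once at p16INK4a, CDKN1B and the canonical start of CDKN2C. CDKN2B and CDKN2D held it 2 times each, and the middle start of CDKN2C 5 times. It was absent before the outermost p14ARF start, CDKN2B-AS1 and the upstream start of CDKN2C. The CCAAT box was present in 34.1% of all promoters and occurred 2 times at CDKN1B and once at CDKN2D, the canonical CDKN2C start and CDKN2B-AS1. The TATA box TATAAA, held by 9.40% of promoters, and the E2F motifs TTTGGCGC, TTTCGCGC, TTTCCCGC and TTTGCCGC, held by 3.72%, did not occur in any of the searched windows. The bases just before the p14ARF start used for the peaks, and before an upstream start of CDKN1B, were not searched. These counts are matches of letters and not binding sites.

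H3K4me3 within 1 kb of the canonical start and past the limits was found at 6 of 6 members, beside 59.1% of all protein-coding genes. The limits for this mark, for H3K9Ac, H3K36me3 and CTCF were a fold enrichment over 5 together with a q-value under 1e-10, and for H3K4me1 and H3K27me3 a fold enrichment over 2 together with a q-value under 0.001. The median fold enrichment of the members was 19.2, with a range of 13.2 to 25.5, and the median of the 11924 genes with such a peak was 22.5. H3K9Ac was likewise found at 6 of 6 members, beside 58.5% of all genes, with a median of 11.2 and a range of 8.25 to 17.2 against 13.1. H3K4me1 was found at 5 of 6, beside 49.1%, with a median of 4.70 against 4.69. H3K4me3 and H3K9Ac together were at 6 of 6 members, beside 57.5%, and both with H3K4me1 at 5 of 6, beside 43.1%. H3K36me3 past the limits was at 0 of 6, beside 0.298%. Shares of this size in 6 genes do not set the members apart from other genes that are marked at their start.

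**Figure D1:**
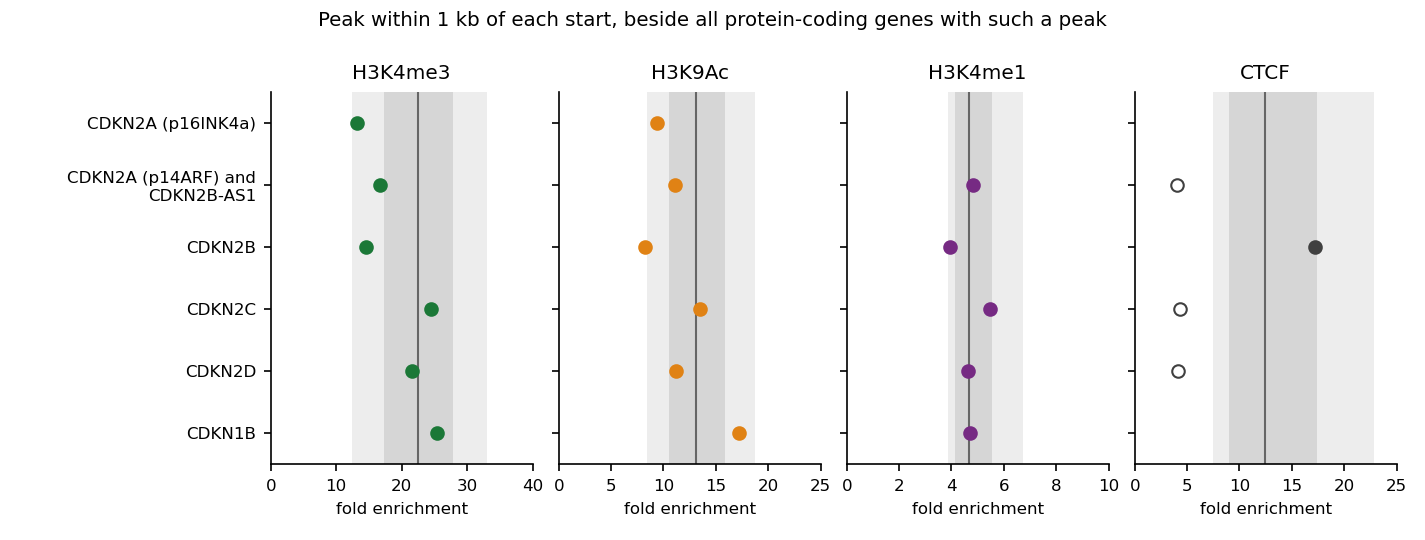
Fold enrichment (x axis, linear) of the peak within 1 kb of each start, with 1 panel for each of 4 marks and 1 row for each start. Filled points passed the limits and open points did not, the line is the median of all protein-coding genes with such a peak, and the darker and lighter bands span their 25th to 75th and 10th to 90th percentiles. The H3K4me3 points of the chromosome 9 starts (13.2, 16.8 and 14.5) lie left of the median of 22.5, and the CTCF point of CDKN2B (17.2) is the only filled one. In the row of p14ARF and CDKN2B-AS1, the H3K4me1 point (4.82) is that of the CDKN2B-AS1 start.

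The cell cycle inhibitors p16INK4a and p14ARF start 19535 bp apart within CDKN2A (ENSG00000147889, chr9:21967751-21995300, minus strand). Both of these starts had H3K4me3 and H3K9Ac past the limits and no H3K4me1 peak within 1 kb. The outermost annotated p14ARF start, chr9:21995300, does have an H3K4me1 peak past the limits within 1 kb, chr9:21995700-21996589. At the p16INK4a start, H3K4me3 covered chr9:21973690-21975998, 13.2-fold enriched at a −log10 q-value of 32.5. This height was above that of 12% of the genes with an H3K4me3 peak at the start, which puts it low among marked genes but well past the limits. H3K9Ac covered chr9:21972974-21976094 with a fold enrichment of 9.40, above 16.5% of marked genes.

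No H3K4me1 peak was listed within 1 kb of the p16INK4a start. Among the genes with an H3K4me3 peak, 25.5% also had no H3K4me1 peak past the limits there. The pattern is thus a common one, and the p14ARF start used for the peaks shares it. The nearest H3K4me1 peak, chr9:21976075-21976537 in an intron of the p14ARF transcripts, was 3.11-fold enriched at a −log10 q-value of 1.54, under the limits. CTCF was not listed at this start either.

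The p14ARF start and the start of CDKN2B-AS1 (ENSG00000240498, chr9:21994138-22128102, plus strand) lie 741 bp apart on opposite strands, and 1 set of peaks covered both. Marks at these 2 starts therefore cannot be divided between the protein-coding gene and the antisense RNA. H3K4me3 covered chr9:21992926-21996458 at a fold enrichment of 16.8, above 22.9% of marked genes, and its width of 3533 bp exceeded that of 96.2% of all listed H3K4me3 peaks. H3K9Ac covered chr9:21992004-21997050 at 11.1. The peak of H3K4me1 past the limits, chr9:21995700-21996589 at 4.82, began 568 bp downstream of the antisense start, so that the starts themselves were free of it. A broad CTCF peak at chr9:21994200-21996061 contained both starts and was 4.07-fold enriched at a −log10 q-value of 3.32, which is under the limits.

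CDKN2B (ENSG00000147883, chr9:22002902-22009304, minus strand), the neighbouring INK4 gene, starts 34448 bp from the p16INK4a start. It was the only member start with all of H3K4me3, H3K9Ac, H3K4me1 and CTCF past the limits. H3K4me3 at chr9:22008321-22009939 reached 14.5, above 15.5% of marked genes, and H3K9Ac at chr9:22006670-22010171 reached 8.25, above 9.21%. H3K4me1 at chr9:22007374-22010226 reached 3.95, the lowest of the members, with a −log10 q-value of 3.28 just inside the limit of 3. All 3 histone marks were thus in the lower part of their distributions.

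CTCF at CDKN2B stood higher. Its peak, chr9:22008385-22009823, was 17.2-fold enriched at a −log10 q-value of 48.7. This was above 74.4% of the genes with a CTCF peak at the start and above 94.7% of all listed CTCF peaks. Of the CTCF peak, 100% lay within the H3K4me3 peak, of which it covered 88.9%. The CTCF peak was 1439 bp wide, above 92.0% of all listed CTCF peaks. The part of the promoter marks in its height was not tested. A CTCF peak past the limits was present at 13.6% of all protein-coding starts and at 19.3% of those with H3K4me3, so 1 of 6 members is close to what the whole annotation shows. H3K4me3, H3K9Ac and CTCF together were at 1 of 6, beside 11.2%.

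**Figure D2:**
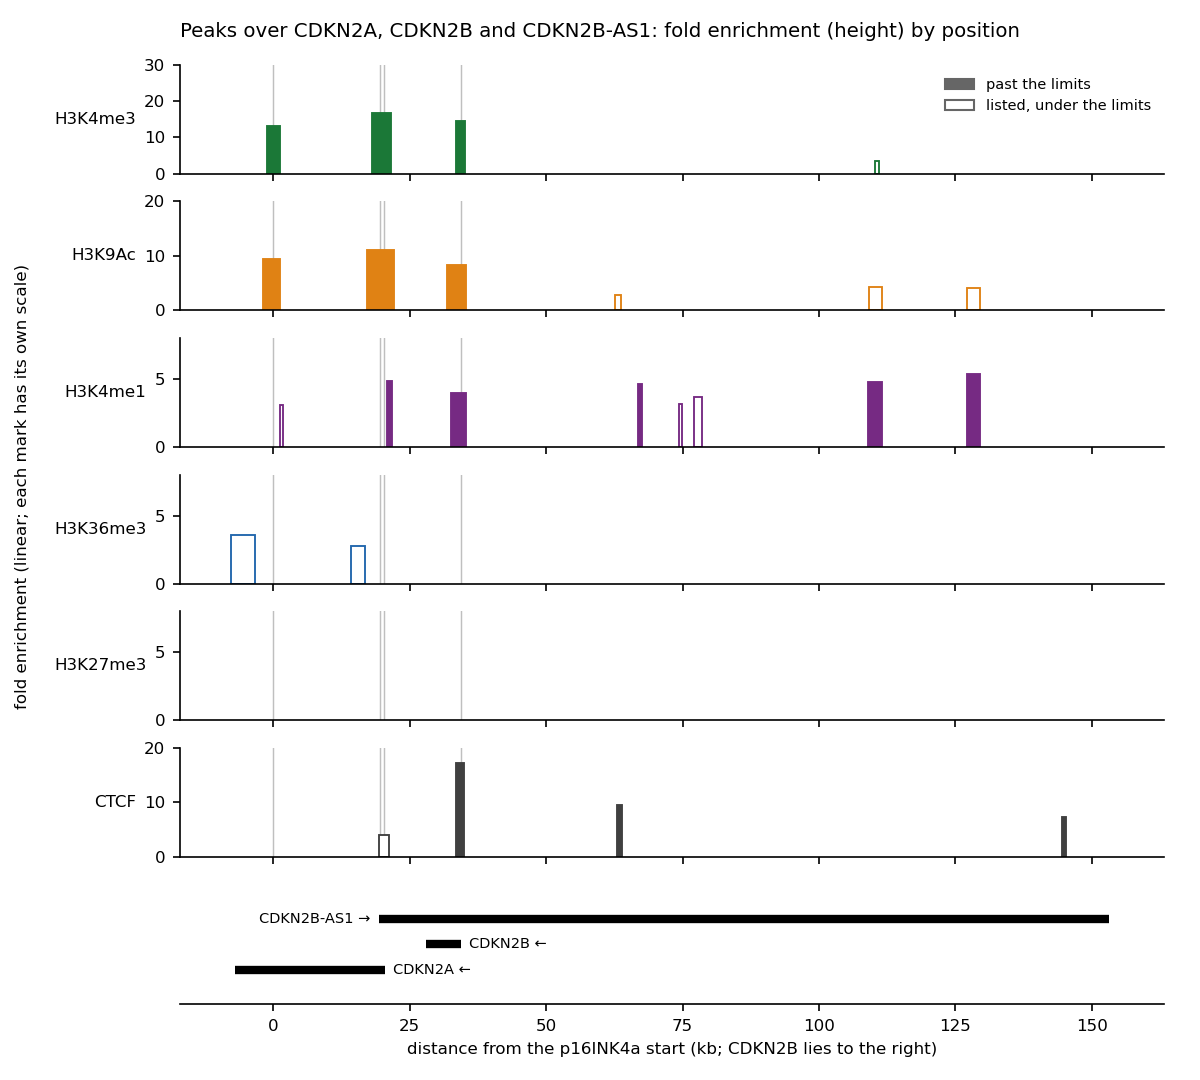
Peaks over CDKN2A, CDKN2B and CDKN2B-AS1, with position as distance from the p16INK4a start in kb (x axis) and fold enrichment as height (y axis, linear, a separate scale for each mark). Filled boxes passed the limits, open boxes are listed but did not, grey lines are the annotated starts and black bars the genes with their direction. Filled boxes of H3K4me3 and H3K9Ac stand at the same 3 places, and open boxes of both marks stand further on in the body of CDKN2B-AS1. H3K27me3 is absent from the window, and CTCF stands highest at the CDKN2B start (17.2).

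The body of CDKN2B-AS1, 133965 bp long, runs on past CDKN2B, where the peaks past the limits were of H3K4me1 and CTCF. Beyond CDKN2B, H3K4me1 passed the limits at chr9:22041656-22042484 (fold enrichment 4.64), chr9:22083922-22086355 (4.75) and chr9:22102053-22104437 (5.39). No H3K4me3 or H3K9Ac peak past the limits lay there. At the second of these places, H3K9Ac was listed at 4.37 and H3K4me3 at 3.64, under their limits. At the third, H3K9Ac was listed at 4.14, also under its limits. The limits for H3K9Ac and H3K4me3 are stricter than those for H3K4me1, and each of these listed peaks would pass the H3K4me1 limits. The −log10 q-values of H3K9Ac and H3K4me1 were 5.67 and 5.58 at the second place, and 4.49 and 7.63 at the third. H3K4me1 without a strong H3K4me3 peak is the pattern that textbooks give for enhancers, but with 1 library for each mark and no measure of activity these places are only described by their marks.

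CTCF passed the limits at 2 places in the body of CDKN2B-AS1. The peak at chr9:22037820-22038756 was 9.60-fold enriched at a −log10 q-value of 18.2, and the peak at chr9:22119364-22120057 was 7.39-fold enriched at 12.1. With the CDKN2B start, these make 3 of the 5 CTCF peaks past the limits in all windows. The others were an intronic peak in CDKN1B and a peak beside CDKN2D. Of the 6 members, 4 had a CTCF peak past the limits in the gene body or within 10 kb, beside 62.4% of all protein-coding genes.

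The best match to the CTCF core, the central stretch of the CTCF binding motif, is printed in capitals with the surrounding bases. It is shown for the 4 peaks past the limits where it had at most 2 mismatches. The choice was made by the match and not by height, and the CDKN1B peak, at 11.4, is left out. The second site of CDKN2B-AS1 had 2 mismatches, and how common such matches are over all CTCF peaks was not counted. Sequences are from hg19 and on the minus strand. They lie at chr9:22008732-22008803 (CDKN2B start), chr9:22038243-22038314 and chr9:22119733-22119804 (body of CDKN2B-AS1) and chr19:10683154-10683225 (in AP1M2, beside CDKN2D).
CDKN2B start: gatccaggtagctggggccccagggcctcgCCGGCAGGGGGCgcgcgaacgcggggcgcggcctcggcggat
CDKN2B-AS1, first: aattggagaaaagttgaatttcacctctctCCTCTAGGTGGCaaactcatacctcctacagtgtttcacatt
CDKN2B-AS1, second: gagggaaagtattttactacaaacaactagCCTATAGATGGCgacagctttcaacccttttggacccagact
beside CDKN2D: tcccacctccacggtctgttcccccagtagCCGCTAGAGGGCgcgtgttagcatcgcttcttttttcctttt

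None of the 5 peaks held an exact match, and 3 held a match with 1 mismatch. Over all 24536 CTCF peaks past the limits, 22.4% held an exact match (95% Wilson interval 21.9 to 22.9, counting error only) and 65.9% a match with at most 1 mismatch. Counted from 1 at the 5′ end of the core, the difference at CDKN2B was A3G, in the first site of CDKN2B-AS1 A3T and beside CDKN2D A3G, with the base of the core first and the base of the site last. The same position thus differed in all 3, but how often it differs over all CTCF peaks was not counted. The core at CDKN2B, chr9:22008762-22008773, lies in the first intron of the canonical transcript and inside the longer coding exon of another annotated CDKN2B transcript. The intronic CDKN1B peak had no match closer than 3 mismatches.

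H3K27me3, the polycomb mark, was not listed anywhere in the 180352 bp around CDKN2A, CDKN2B and CDKN2B-AS1. The closest listed H3K27me3 peaks were 688905 bp away on the side of CDKN2A and 151745 bp away on the side of CDKN2B-AS1, and the closest ones past the limits 1332967 bp and 324707 bp away. An empty stretch of this length is common in this list. Of 15962 adjoining windows of the same length on chromosomes 1 to 22, 56.5% held no listed H3K27me3 peak and 93.0% held none past the limits. At the 6 starts no H3K27me3 peak was listed, beside 9.6% of protein-coding genes with a listed one and 1.22% with one past the limits. At this list's depth, which is unknown, the absence of a peak is not a measurement of 0.

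A single H3K27me3 peak was listed in all the windows together. It lay at chr12:12836520-12837290, at the far upstream end of the CDKN1B window, over GPR19 and a long non-coding RNA. It was 2.49-fold enriched at a −log10 q-value of 1.1, near the lowest value that the list contains. In all, 1 of 6 members had a listed H3K27me3 peak in the gene body or within 10 kb, beside 30% of protein-coding genes, and 0 had one past the limits, beside 3.94%.

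CDKN2C (ENSG00000123080, chr1:51426417-51440306, plus strand), encoding p18INK4c, had 3 clusters of H3K4me3, H3K9Ac and H3K4me1 past the limits. The middle cluster covered both the middle and the canonical start. There H3K4me3 at chr1:51433644-51436070 reached 24.5, above 59.7% of marked genes, H3K9Ac at chr1:51433121-51436891 reached 13.5 and H3K4me1 at chr1:51432856-51436682 reached 5.46, the highest H3K4me1 at a canonical member start. The canonical start itself lay only 153 bp inside the downstream edge of the H3K4me3 peak, and most of the peak was around the CpG-rich middle start.

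The upstream cluster of CDKN2C lay at a start 9500 bp before the canonical one, facing the start of FAF1, a gene for a FAS-associated factor that is read in the other direction. H3K4me3 at chr1:51424632-51426786 reached 19.9 and H3K9Ac 8.77, and these peaks contained starts of both genes. The H3K4me1 peak past the limits (4.20) lay only on the CDKN2C side, and another over FAF1, chr1:51424387-51424726, was listed at 2.66, under the limits. The third cluster lay past the 3′ end of CDKN2C, at chr1:51443231-51444707 for H3K4me3, where GENCODE has no gene and no start. H3K4me3 there was 16.2, H3K9Ac 9.65 and H3K4me1 5.35. H3K4me3 at this place without an annotated start was higher than at the p16INK4a and CDKN2B starts in the same library.

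CTCF was listed at all 3 clusters of CDKN2C, at fold enrichments of 5.10, 4.35 and 3.78, none past the limits. Listed CTCF peaks within 1 kb of the start were present at 4 of 6 members, beside 29.5% of protein-coding genes. They were at CDKN2B, CDKN2B-AS1, CDKN2C and CDKN2D, and the last 3 had heights of 4.07, 4.35 and 4.09. All 3 lay within the footprint of H3K9Ac and over a stretch shared largely with H3K4me3. They were wide, above 90.2% to 97.3% of the listed CTCF peaks, and the part of the promoter marks in these CTCF values was not tested. The one at the CDKN2D start held a CTCF core with 1 mismatch (A3G, on the scale given above), and the best cores of the others had 2 mismatches. Over all 20276 listed CTCF peaks under the limits, 37.2% held a match with at most 1 mismatch, so such a match is common.

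CDKN2D (ENSG00000129355, chr19:10677136-10679735, minus strand), encoding p19INK4d, is the shortest member at 2600 bp, and H3K4me3, H3K9Ac and H3K4me1 each covered 100% of its body. H3K4me3 at chr19:10675687-10680774 reached 21.6, above 45.1% of marked genes. H3K9Ac at chr19:10673783-10683578 reached 11.2 and H3K4me1 at chr19:10675424-10683977 reached 4.64. All 3 peaks ran on to the start of the downstream neighbour KRI1, a ribosome biogenesis gene, so the value of CDKN2D and of KRI1 is that of the same peaks.

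Beside CDKN2D, CTCF passed the limits at chr19:10682871-10683550 within AP1M2, an epithelial clathrin adaptor gene, at 9.62-fold enrichment and a −log10 q-value of 28.9. At alternative starts of AP1M2 further on, H3K4me1 passed the limits (5.58, the highest in any window), while H3K9Ac (5.61, with a −log10 q-value of 8.77) and H3K4me3 (4.14) did not. CDKN2D itself had a listed CTCF peak over its start, of 4.09, which did not pass. The peaks of the CDKN2D window thus lay in part over neighbouring genes, and those shared with KRI1 cannot be divided between it and CDKN2D.

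CDKN1B (ENSG00000111276, chr12:12838432-12875303, plus strand), encoding p27KIP1, had the highest H3K4me3 and H3K9Ac of the members. H3K4me3 at chr12:12869402-12872950 reached 25.5, above 64.6% of marked genes, and H3K9Ac reached 17.2, above 83.2%. The H3K9Ac peak was 12872 bp long, wider than 99% of the listed H3K9Ac peaks, and ran on to chr12:12881134. It covered a second H3K4me3 peak, chr12:12875085-12880239 at 15.7, which lay over the 3′ end of CDKN1B and the starts of the long non-coding RNA ENSG00000256658 and of APOLD1.

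H3K4me1 at CDKN1B did not cover the start, although 73.7% of the peak just before it lay inside the H3K4me3 peak. H3K4me1 reached 4.70 at chr12:12869177-12870033, ending 269 bp before the start, 4.81 at chr12:12871928-12878028 and, further on over APOLD1, 4.83 at chr12:12879616-12880363. This differs from CDKN2B, CDKN2C and CDKN2D, where 1 H3K4me1 peak contained the start. Far upstream, 21021 bp before the canonical start, another CDKN1B start had H3K4me3 at 8.28, above only 2.48% of marked genes. H3K9Ac was 10.7 and H3K4me1 4.30 there. These peaks also contained the start of GPR19, which encodes an orphan G protein-coupled receptor and is read in the other direction.

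Between the 2 CDKN1B starts, an intronic CTCF peak at chr12:12857381-12858082 was 11.4-fold enriched at a −log10 q-value of 48.0. H3K9Ac (2.88) and H3K4me1 (3.0) were listed over it, both under the limits. No CTCF peak was listed within 1 kb of the canonical start of CDKN1B.

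**Figure D3:**
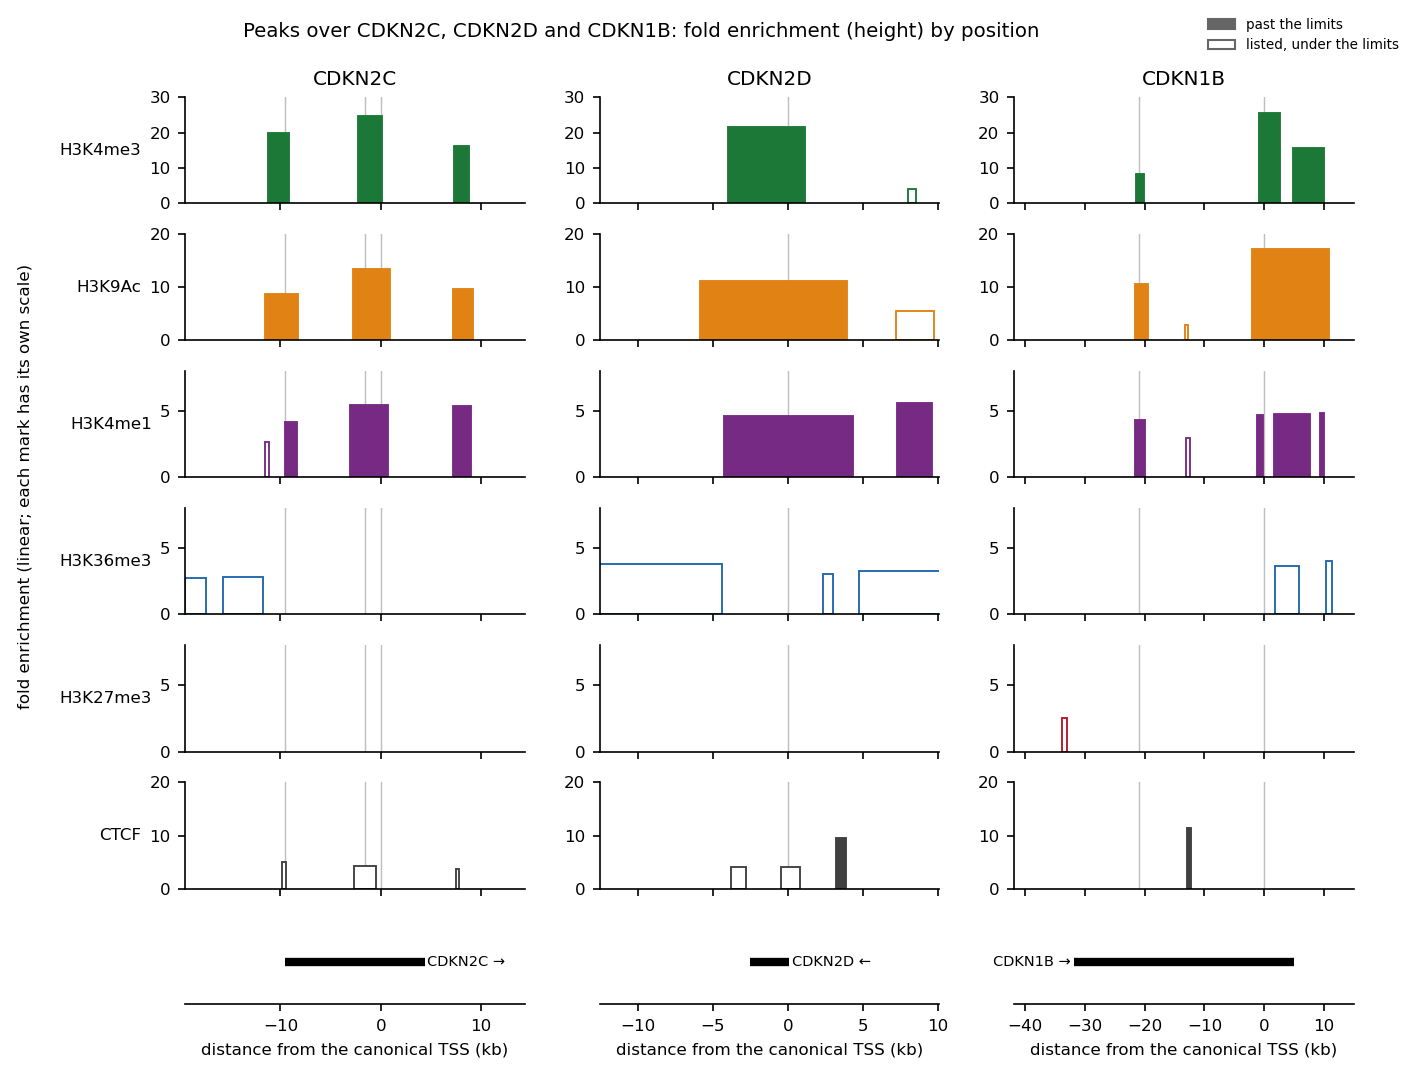
Peaks over CDKN2C, CDKN2D and CDKN1B, with position as distance from the canonical start in kb (x axis) and fold enrichment as height (y axis, linear, a separate scale for each mark). Filled boxes passed the limits, open boxes are listed but did not, grey lines are annotated starts and black bars the genes with their direction. CDKN2C has 3 clusters of H3K4me3 (19.9, 24.5 and 16.2), and H3K9Ac at CDKN1B spans 12872 bp.

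H3K36me3, the mark of transcribed gene bodies, had no peak past the limits in any window, beside 0.789% of protein-coding genes with one. The limits pass only 90 of the 40010 listed H3K36me3 peaks, so the listed peaks were also described. Listed peaks numbered 9 and fell in the windows of 5 of 6 members, beside 65.9% of protein-coding genes. The exception was CDKN2B. Within the gene bodies, H3K36me3 was listed over the 3′ part of CDKN2A (chr9:21967057-21971418, 3.57), between its starts (chr9:21989077-21991607, 2.74) and over the 3′ part of CDKN1B (chr12:12872047-12876056, 3.68).

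The other listed H3K36me3 peaks lay outside the members' bodies. In the CDKN2D window they covered 62.7% of the bases, beside a median of 11% over all protein-coding windows, but none of the body of CDKN2D. They lay over ATG4D and KRI1 (3.80), in a gap between genes (3.05) and over AP1M2 (3.28). In the CDKN2C window, 2 peaks lay over FAF1 and none over CDKN2C, and past the end of CDKN1B 1 lay over APOLD1 (4.04). No listed H3K36me3 peak touched the body of CDKN2B-AS1.

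The shares of the windows covered by peaks past the limits give the same data without regard to starts. H3K4me3 covered between 12.3% (CDKN2A) and 22.5% (CDKN2D) of the windows of the 5 protein-coding members, beside a median of 2.50% over all protein-coding genes, and H3K9Ac between 17.2% and 43.3%, beside 3.68%. CDKN2B-AS1, with the longest window, had 3.35% and 5.55%. H3K4me1 ranged from 1.87% at CDKN2A to 47.9% at CDKN2D, beside 3.89%. Short genes give a high share for 1 peak of the same width, and CDKN2A, CDKN2B and CDKN2B-AS1 share part of their windows.

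**Figure D4:**
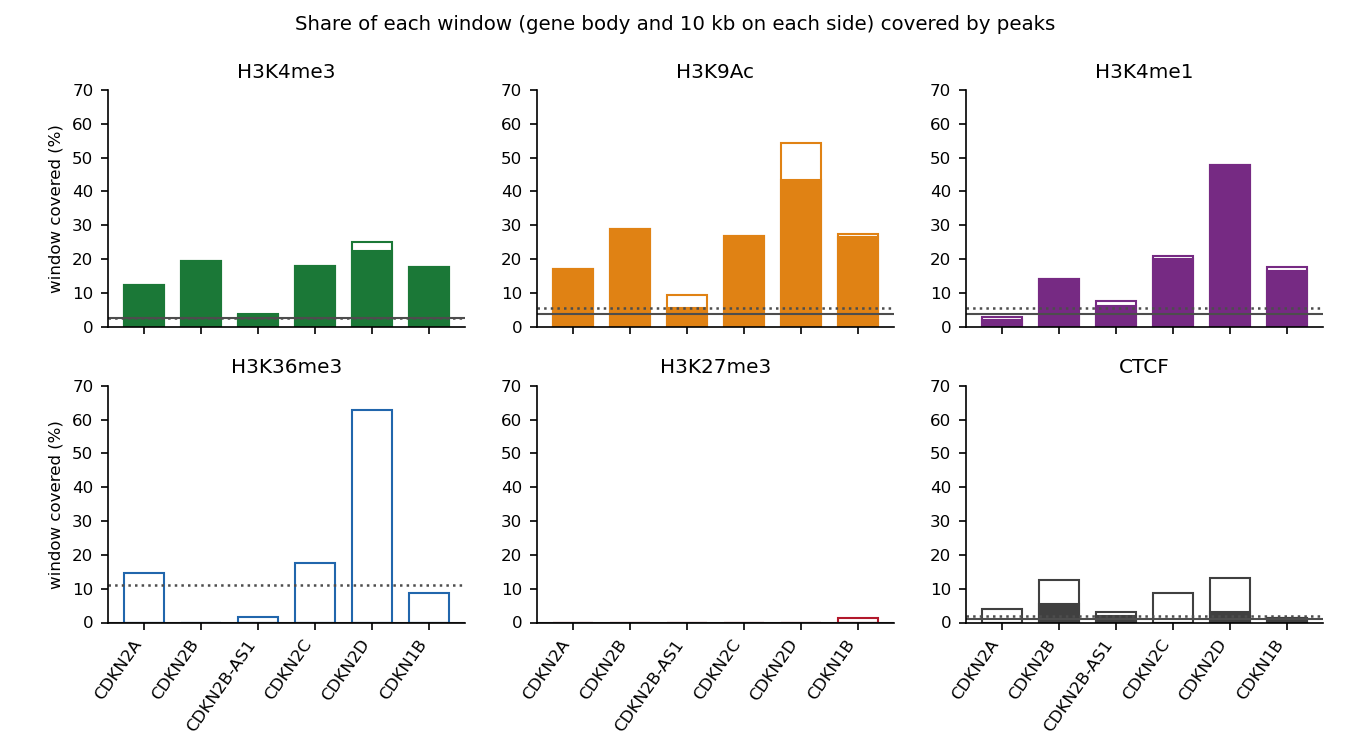
Share of each member's window (gene body and 10 kb on each side) covered by peaks, in percent (y axis), with 1 panel for each mark and 1 bar for each member. Filled parts are peaks past the limits, open parts are peaks listed but not past them, and the solid and dotted lines are the medians of all protein-coding genes for the 2 sets. CDKN2D has the widest cover of H3K4me3 (22.5%) and H3K9Ac (43.3%), and H3K27me3 appears only as a listed sliver at CDKN1B (1.36%).

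Genes that act with the CDK inhibitors were read in the same way. The list holds the other CIP/KIP inhibitors, the cyclins and kinases that the inhibitors bind, the pocket proteins with E2F1, and polycomb genes, 19 in all. H3K4me3 and H3K9Ac past the limits were at the start of 18 of 19, beside 59.1% and 58.5% of all protein-coding genes. Their medians were 24.1 and 13.6 against 22.5 and 13.1 over all marked genes. H3K4me1 was at 17 of 19, beside 49.1%, and H3K36me3 at 0, beside 0.298%. H3K27me3 was at 1, beside 1.22%, and CTCF at 3, beside 13.6%. The member starts of chromosome 9 lie below the H3K4me3 median of this list, as does that of CDKN2D, and those of CDKN2C and CDKN1B lie above it.

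CCND2, which encodes cyclin D2, was the exception in the list. It had no H3K4me3, H3K9Ac or H3K4me1 peak at its start and had H3K27me3 past the limits at 4.19, and H3K27me3 past the limits covered 29.3% of its window. BMI1, a subunit of polycomb repressive complex 1, had H3K4me3 at 16.4 and a listed H3K27me3 peak at its start under the limits, while H3K27me3 past the limits covered 10.7% of its window. CDK6, a target of the INK4 proteins, had H3K4me3 at 16.5 and also a listed H3K27me3 peak under the limits. Listed H3K27me3 was thus at 3 of 19 starts in the list, beside 9.6% of all protein-coding starts.

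The CIP/KIP inhibitors CDKN1A and CDKN1C, encoding p21CIP1 and p57KIP2, both had CTCF at the start, at 17.6 and 8.18, unlike CDKN1B. CCND1, which encodes cyclin D1, was the other gene of the list with CTCF past the limits (9.33). H3K4me3 was 22.5 at CDKN1A and 26.2 at CDKN1C, H3K9Ac 9.71 and 16.9, and H3K4me1 7.08 and 8.74. The H3K4me1 values of both were above the highest value at a canonical member start, 5.46 at CDKN2C.

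As a check of the cell label, H3K4me3 past the limits was at the start of 5 of 5 epithelial genes (EPCAM, CDH1, KRT8, KRT18 and ELF3, at 13.4 to 30.4) and of 0 of 5 genes of other lineages (PTPRC, CD3E, ALB, MYH6 and NEUROD1). The lists hold between 16112 (H3K4me3) and 55270 (H3K27me3) peaks, of which 83939 in all passed the limits. Read counts were not used here, so the depth behind each peak is unknown and no interval can be given for a fold enrichment. In each library the order of neighbouring values among the members, such as 25.5 and 24.5 for H3K4me3, may lie within an error that was not measured.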

How the data were processed

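ChIP-seq libraries of HCT116 cells, 1 for each antibody, were analysed through 1 deposited peak list per library. Per the labels and the methods, reads of 75 bases with molecular identifiers were demultiplexed with bcl2fastq 2.20.0.442, aligned to hg19 with BWA 0.7.12 and handled with SAMtools 0.1.19. The methods name MACS2 with broad peaks at a cutoff of 0.1, while the submitters' processing notes list MACS 1.4.2, so the version of the peak caller is not settled. The sources also differ on whether the reads were single or paired. Each list has 9 columns. The authors deposited for each peak a fold enrichment (a linear ratio to the local background), a −log10 p-value and a −log10 q-value of the whole peak, and a score that is the −log10 q-value times 10. Peaks were called for each library, and the lowest listed −log10 q-value lay just above 1.

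The limits of the methods name histone marks only, and CTCF was treated like H3K4me3. Genes came from GENCODE 44 on hg19, with the canonical transcript giving the start, and 0 peaks lay outside the hg19 chromosomes. Overlap required at least 1 bp. Percentiles are shares of genes with such a peak that have a lower fold enrichment. Promoters and the CTCF core were read from the GRCh37 genome, the same build. The members were named in full, with every peak past the limits in their windows and the other genes whose starts share those peaks. Genes of the cell cycle list were named where a count was 5 or fewer. The members and lists were chosen with earlier results of these data known. No test was made, since each mark has 1 library. Overlap counting was tested on simulated data, with 300 of 300 planted overlaps recovered. Python 3.11.15, numpy 2.4.6, pandas 2.3.3, matplotlib 3.10.9 and samtools 1.23.1 were used. The alternatives were all deposited peaks, a fold limit 1.5 times higher, gene bodies alone, 50% of the peak in the window, 2 kb around the start, any annotated start, ordering by q-value and 1 mismatch in the CTCF core.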

Additional observations from a re-analysis of the deposited data

How the results depend on the processing

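When every listed peak was taken, with no limits, the count in the windows was 14 instead of 9 for H3K9Ac, 9 instead of 0 for H3K36me3, 1 instead of 0 for H3K27me3 and 11 instead of 5 for CTCF, and members with CTCF at the start numbered 4 instead of 1. In the cell cycle list, H3K27me3 rose from 1 to 3 genes (CCND2, CDK6 and BMI1) and CTCF from 3 to 9. With any annotated start, members with CTCF numbered 2 instead of 1, the second being CDKN2B-AS1 at a start beside its downstream CTCF peak. These changes follow from the wider list or the added starts themselves. The other 46 counts stayed within 1.5 times under the alternatives. Among them, members with H3K4me1 at the start numbered 6 instead of 5 with any annotated start, CDKN2A being added. Single values of height, rank, cover and core match moved in 68 comparisons and stayed in 42, with no replicate spread to judge them by. With 1 mismatch allowed in the core, CTCF peaks with a match numbered 3 instead of 0. No paired analysis was possible because a mark was measured in 1 library only. Depth is unknown, and weak marks under the limits may depend on it.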
